A study of Mus musculus with 6 samples.

Results

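The autophagy and lysosome genes of C2C12 cells were compared between myoblasts and myotubes. The 44 genes, chosen with earlier results of these data known, were taken by their symbols from the 54525 gene rows of the count tables. They comprised 25 genes of the autophagy machinery, 16 genes of lysosomal proteins and 3 transcription factors. The C2C12 line was established from mouse myoblasts, which leave the cell cycle and fuse into multinucleated myotubes in culture. All samples were wild type (WT) and untreated by the labels, with 3 cultured samples of myoblasts at day 0 (D0) and 3 after 5 days of differentiation (D5). By the study's methods the myoblasts grew in medium with fetal bovine serum and the myotubes formed in medium with horse serum at a lower concentration. Stage therefore cannot be told apart from the kind of serum or its lower level. Each sample gave 1 RNA-seq library, and the deposited values are raw featureCounts read counts per gene on the mouse genome GRCm38.

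In macroautophagy a double membrane closes around cytoplasm, aggregates or organelles and then fuses with the lysosome, whose acid hydrolases break the content down. The ULK kinase complex and a phosphatidylinositol 3-kinase complex start the membrane, conjugation enzymes attach the ubiquitin-like Atg8 proteins to it, and receptors bring cargo to them. Many lysosomal and autophagy genes are targets of the MiT/TFE transcription factors, and in skeletal muscle these pathways are known for the turnover of mitochondria, glycogen and protein.

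Gene counts per library lay between 36555048 and 40895840 in the myoblasts and between 25449759 and 25811300 in the myotubes. Synthetic ERCC spike-in RNAs took from 0.720% to 2.09% of the counts in a library, and both of these values were from D5 libraries. Differentiation markers rose from a summed 56.6 to 70.3 counts per 1000000 (CPM) at D0 to between 11932 and 12763 CPM at D5. Proliferation markers fell from between 1548 and 1565 CPM to between 47.4 and 55.8 CPM. A culture at D5 can hold unfused cells beside myotubes, and in these bulk samples fewer cells of a type and less RNA per cell cannot be told apart.

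Most of the autophagy and lysosome genes were higher in myotubes, and by small amounts. Of the 44 genes, 43 had enough counts to pass edgeR's filterByExpr, and 32 of these were higher at D5 and 6 lower at an adjusted p under 0.05 (edgeR's quasi-likelihood test, Benjamini-Hochberg over 16290 genes). In the same test 42.2% of all genes were higher and 40.8% were lower. The median log2 fold change was 0.37 over the 43 genes and 0.0022 over all genes tested. Values ran from -0.68 for *Mcoln1* to 1.84 for *Tfeb*. The change exceeded 2-fold in 9 genes, all of them higher at D5. Over all 16290 genes tested, 3141 rose and 2612 fell by more than 2-fold. Every D5 library lay above every D0 library in 32 of the 43 genes, where 42.2% of all genes did so, and below in 6, where 41.1% of all genes did so.

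Directions are relative to the bulk of the genes, because the libraries were put on one scale with TMM factors, which assume that most genes do not change. With libraries scaled to the ERCC spike-ins the median of all genes moved to -0.58 and only *Tfeb* of the 38 called genes was still called, at a log2 fold change of 1.28 ± 0.53 (SE; adjusted p = 0.0458). The SE is larger with the spike-ins, for *Becn1* 0.52 where TMM gave 0.04, so a change of sign can lie within the error. Of all calls, 50.8% were higher at D5 with TMM and 32.6% with the spike-ins. Relative to the median of all genes, the median of the 43 genes was 0.37 higher with TMM and 0.39 higher with the spike-ins. A change of scaling shifts all genes by nearly the same amount, so this difference is no check of the scale. Transcripts per 1000000 (TPM), which divide each count by exonic length and by the sum of such values, moved the median of all genes to -0.16. In TPM 29 of the 43 genes were higher at D5 and 14 lower, where 7054 of all genes tested were higher and 9229 lower.

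**Figure D1:**
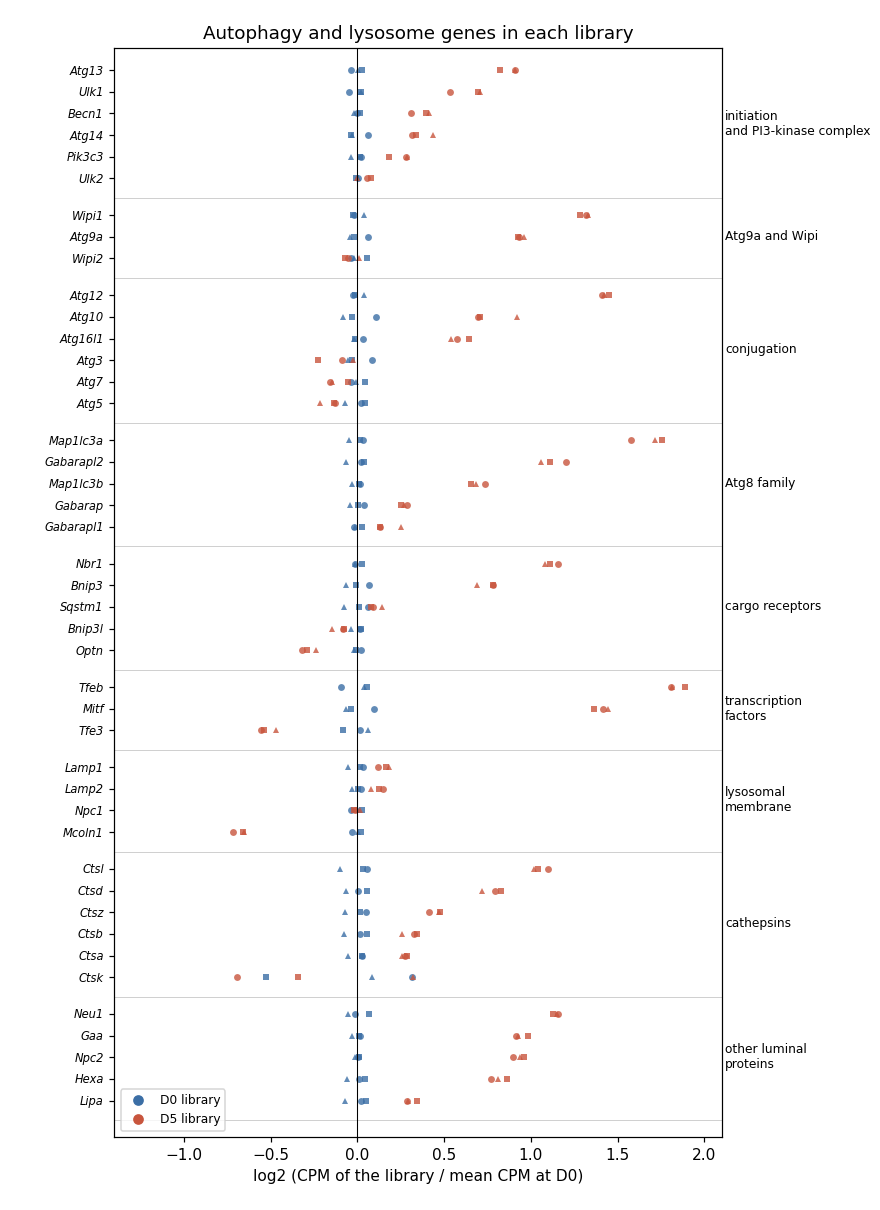
CPM of the 43 tested genes in each library, as the log2 ratio to the mean CPM at D0 (x axis), with 1 row per gene, grouped by role. Points are libraries, with 3 shapes for the 3 replicates of a stage. D5 libraries (red) sit above every D0 library (blue) in 32 rows and below in 6, on the TMM scale. The shares over all genes tested are 42.2% and 41.1%. Scaling to the spike-ins turns the fitted change of 12 of the 32, none of these with a call.

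Autophagy starts with the ULK kinase complex and the phosphatidylinositol 3-kinase complex. Of the 6 member genes of these complexes 5 rose (83.3%, beside 42.2% of all genes). Of other subunits on the pathway lists, *Atg101* of the ULK complex rose by 1.31 and its scaffold gene *Rb1cc1* was lower at -0.82, while *Pik3r4* (0.05) and *Nrbf2* (-0.12) of the lipid kinase complex had no call. *Atg13*, the regulatory subunit of the ULK complex, had 36.8, 38.4 and 37.7 CPM at D0 and 70.5, 66.5 and 70.8 CPM at D5. All D5 libraries were above all D0 libraries, a 1.84-fold rise (log2 fold change 0.88 ± 0.04 SE, edgeR adjusted p = 3.09e-18). The kinase gene *Ulk1* rose by 0.65 ± 0.04 on the log2 scale, while its paralog *Ulk2* had no call at 0.04 ± 0.04 (adjusted p = 0.284). The ratio of *Ulk1* to *Ulk2* in TPM, which does not depend on scaling between libraries, went from 0.793 ± 0.0242 (SD, n = 3) at D0 to 1.21 ± 0.0963 at D5, without overlap. In the lipid kinase complex, *Becn1* (Beclin 1) rose by 0.37 ± 0.04, *Atg14*, the subunit that directs the complex to forming autophagosomes, by 0.37 ± 0.06, and the catalytic subunit *Pik3c3* by 0.25 ± 0.05. With spike-in scaling these genes stood at -0.19, -0.22 and -0.33, each with an SE of 0.52 and no call. Of the exonic length of *Becn1*, 43.9% overlaps *Cntd1* on the other strand, which had at most 17 counts in a library.

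*Wipi1*, whose protein binds the phosphoinositide made by that kinase, was among the genes that more than doubled. It had 36.7, 36.5 and 38.2 CPM in the myoblasts and 92.6, 90.3 and 93.3 CPM in the myotubes. The groups were apart by more than the spread within either of them, a log2 fold change of 1.31 ± 0.04 (edgeR adjusted p = 2.09e-23). *Wipi2*, which recruits the conjugation complex, stood at -0.04 ± 0.04 and had no call (adjusted p = 0.343), although it was called lower with total counts (-0.12, adjusted p = 0.0035) and without a filter (-0.09, adjusted p = 0.0439). *Atg9a*, the transmembrane lipid scramblase of the vesicles that seed the membrane, rose by 0.94 ± 0.05. A readthrough gene, *Gm29253*, shares 31.8% of the exonic length of *Atg9a* and had at most 3 counts in any library.

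The 6 conjugation genes split by direction, with 3 called higher and 2 lower (50% and 33.3%, beside 42.2% and 40.8% of all genes). *Atg12*, a ubiquitin-like protein that is joined to Atg5, had 34.4, 34.6 and 35.9 CPM at D0 and 93.0, 95.4 and 93.5 CPM at D5. This 2.69-fold rise (log2 fold change 1.43 ± 0.04, edgeR adjusted p = 2.17e-24) put every D5 library far above the D0 libraries. *Atg10*, the E2-like enzyme that attaches *Atg12*'s product, rose by 0.78 ± 0.09, and *Atg16l1*, which holds the complex on the membrane, by 0.59 ± 0.04. *Atg5*, the acceptor of Atg12, fell: it had 31.6, 32.2 and 29.6 CPM at D0 and 28.5, 28.4 and 26.8 CPM at D5. The D5 libraries were all lower, but the step was small beside that of *Atg12* (log2 fold change -0.16 ± 0.05, adjusted p = 0.00507). *Atg3*, the E2-like enzyme for the Atg8 proteins, was called lower at -0.11 ± 0.05 (adjusted p = 0.0362), and the call was lost with DESeq2 (-0.10, adjusted p = 0.098), without D0 replicate 1 (-0.08, adjusted p = 0.155) and without D5 replicate 2 (-0.05, adjusted p = 0.341). *Atg7*, the E1-like enzyme of both conjugations, was at -0.12 ± 0.06 with no call (adjusted p = 0.0582); it was called lower with upper-quartile factors, with total counts, without a filter, without D0 replicate 1 and without D5 replicate 2, at values from -0.20 to -0.13.

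All 5 Atg8 family genes rose on the TMM scale, where 42.2% of all genes did so. The amounts ran from 0.17 to 1.69 on the log2 scale. With the spike-ins none of the 5 genes had a call, and *Gabarap* and *Gabarapl1* were at -0.30 and -0.41. *Map1lc3a* encodes LC3A, a lipid-anchored protein of the autophagosome membrane, and lies at chr2:155276297-155278073 on the plus strand of GRCm38. It had 73.2, 72.1 and 69.1 CPM in the myoblast libraries and 214, 241 and 235 CPM in the myotube libraries. This was the largest rise of the autophagy machinery, 3.22-fold (log2 fold change 1.69 ± 0.04, edgeR adjusted p = 4.4e-26). *Gabarapl2*, known as GATE-16, had 27.5, 27.9 and 25.9 CPM at D0 and 62.4, 58.6 and 56.5 CPM at D5, a log2 fold change of 1.13 ± 0.05. Here 12.2% of its 50-base stretches also occur in 4 other annotated genes. *Map1lc3b*, which encodes LC3B, the usual protein marker of autophagosomes, had 92.2, 91.9 and 89.5 CPM at D0 and 152, 144 and 147 CPM at D5 (0.69 ± 0.03).

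The other Atg8 genes changed less. *Gabarap* had 224, 219 and 212 CPM at D0 and 266, 260 and 263 CPM at D5, so that its 1.20-fold rise (0.27 ± 0.03, adjusted p = 9.6e-09) left no overlap. *Gabarapl1* had 53.0, 54.6 and 53.2 CPM at D0 and 58.7, 58.7 and 63.7 CPM at D5 (0.17 ± 0.04, adjusted p = 0.000411). With total counts in place of TMM factors its call was lost (0.09, adjusted p = 0.0535), and 28.3% of its exonic length overlaps *1700101I11Rik* on the other strand, which rose as well from at most 8 counts to between 10 and 20.

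The order within the family changed. Per length, *Gabarap* led at D0 with 409 ± 5.60 TPM (SD, n = 3) against 209 ± 3.64 for *Map1lc3a*, and *Map1lc3a* led at D5 with 603 ± 26.3 TPM against 442 ± 13.9. *Map1lc3a* thus went from 26.4% ± 0.132 to 47.2% ± 1.92 of the family's summed TPM and *Gabarap* from 51.6% ± 0.272 to 34.6% ± 1.19, with no overlap between stages for either. The remaining order was *Gabarapl1*, *Map1lc3b* and *Gabarapl2* at D0, with 92.0 ± 2.33, 41.9 ± 0.407 and 40.3 ± 1.28 TPM, of which the last pair differed by little more than its spread. At D5 it was *Gabarapl1*, *Gabarapl2* and *Map1lc3b*, with 93.0 ± 4.33, 78.9 ± 5.38 and 60.8 ± 2.97 TPM.

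**Figure D2:**
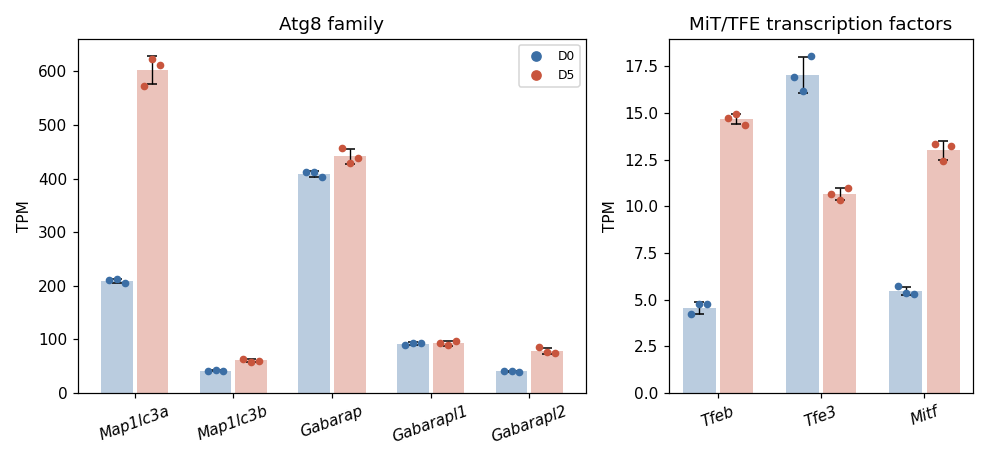
TPM of the 5 Atg8 family genes (left) and the 3 MiT/TFE transcription factor genes (right) at D0 (blue) and D5 (red); bars are means, error bars are SD (n = 3) and points are libraries. *Map1lc3a* passes *Gabarap* at D5, and *Tfeb* and *Mitf* pass *Tfe3*.

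Of the 5 cargo receptor genes 3 rose and 2 fell (60% and 40%, the share of falls near the 40.8% of all genes, of which 42.2% rose). *Nbr1*, a receptor for ubiquitinated cargo, had 140, 144 and 141 CPM at D0 and 316, 306 and 300 CPM at D5. Its level more than doubled (log2 fold change 1.12 ± 0.03, edgeR adjusted p = 1.31e-23). *Sqstm1*, which encodes the related receptor p62, stood at 575, 557 and 524 CPM at D0 and 589, 583 and 609 CPM at D5. The groups did not overlap, but the change was only 0.10 ± 0.03 (adjusted p = 0.00679), and the call was lost with total counts (0.02, adjusted p = 0.582), without a filter (0.05, adjusted p = 0.189) and without D0 replicate 3 (0.06, adjusted p = 0.136). In TPM *Sqstm1* went from 569 ± 18.4 to 548 ± 15.8.

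*Optn*, a receptor for ubiquitinated mitochondria and bacteria, showed the largest fall of the machinery. It had 44.7, 43.7 and 43.4 CPM at D0 and 35.3, 35.9 and 37.2 CPM at D5, or 82.2% of the D0 level (log2 fold change -0.28 ± 0.04, edgeR adjusted p = 1.06e-06). The outer mitochondrial membrane receptors moved apart: *Bnip3* rose by 0.75 ± 0.05, whereas *Bnip3l* (NIX) was at -0.10 ± 0.04 (adjusted p = 0.00981). That call of *Bnip3l* was lost without D5 replicate 3 (-0.08, adjusted p = 0.0708). The ratio of *Bnip3* to *Bnip3l* in TPM went from 0.473 ± 0.0142 to 0.854 ± 0.00894. Both share sequence with other annotated genes (*Bnip3l* with the pseudogene *Bnip3l-ps*), 16.6% and 20.8% of their 50-base stretches, and how reads with several matches were handled is not given in the sources used here.

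The MiT/TFE factors, which bind E-box sequences in promoters of lysosomal and autophagy genes, went in opposite directions. *Tfeb* (chr17:47737030-47792419, plus strand) had 7.02, 7.80 and 7.70 CPM at D0 and 26.3, 27.8 and 26.5 CPM at D5. The 3.58-fold rise was the largest of all 43 genes (log2 fold change 1.84 ± 0.06, edgeR adjusted p = 1.13e-21). *Mitf*, which encodes the melanocyte-inducing factor, had 10.5, 9.56 and 9.39 CPM at D0 and 26.1, 25.2 and 26.7 CPM at D5. All its D5 libraries were above all D0 libraries (1.41 ± 0.06, adjusted p = 4.01e-19). *Tfe3* had 46.1, 43.2 and 47.8 CPM at D0 and 31.1, 31.5 and 33.0 CPM at D5, and so fell to 69.7% of its D0 level (-0.52 ± 0.05, adjusted p = 3.38e-11).

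Per length, *Tfe3* was the leading factor in myoblasts, with 62.9% ± 1.37 (SD, n = 3) of the summed TPM of the 3 genes, and it held 27.8% ± 0.557 in myotubes. *Tfeb* went from 16.9% ± 1.24 to 38.3% ± 1.20 and *Mitf* from 20.2% ± 1.26 to 33.9% ± 0.856. The ratio of *Tfeb* to *Tfe3* was 0.249, 0.295 and 0.263 in the D0 libraries and 1.38, 1.44 and 1.31 in the D5 libraries. Their summed level was low at both stages, 27.1 ± 0.949 TPM at D0 and 38.4 ± 0.555 TPM at D5. The counts give RNA levels only, and the activity of these factors, which depends on where the protein is in the cell, was not measured.

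Lysosomal membrane proteins changed least, apart from *Mcoln1*. *Mcoln1* encodes the calcium channel TRPML1 of the lysosome (chr8:3500457-3515232, plus strand), and had 61.3, 63.5 and 62.7 CPM at D0 and 38.0, 39.6 and 39.7 CPM at D5. At 62.6% of the D0 level it was the largest fall of the 43 genes (log2 fold change -0.68 ± 0.04, edgeR adjusted p = 2.25e-15). *Lamp1*, a main glycoprotein of the membrane, had 697, 688 and 656 CPM at D0 and 738, 764 and 771 CPM at D5. All D5 libraries were higher (0.15 ± 0.03, adjusted p = 9.35e-05), but per length its level was 879 ± 17.1 TPM at D0 and 878 ± 9.17 TPM at D5, the highest of the 44 genes at both stages. *Grtp1*, whose exons on the other strand cover 9.31% of *Lamp1*, rose by 3.84 on the log2 scale to at most 538 counts. *Lamp2*, its paralog, was called at 0.12 ± 0.03 and lost the call with total counts (0.03, adjusted p = 0.327) and without a filter (0.07, adjusted p = 0.0993). *Npc1*, the membrane transporter of lysosomal cholesterol, had no call at -0.0047 ± 0.04 (adjusted p = 0.91). It was called lower with total counts (-0.09, adjusted p = 0.0316).

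Of the 7 cathepsin genes 6 were tested, and 5 of these rose (83.3%, beside 42.2% of all genes). *Ctsl*, a cysteine protease, had 377, 371 and 339 CPM at D0 and 776, 746 and 735 CPM at D5. This doubling (2.08-fold, log2 fold change 1.05 ± 0.04, edgeR adjusted p = 9.74e-22) was larger than that of the cysteine protease *Ctsb*, which rose by 0.31 ± 0.04, and the ratio of *Ctsl* to *Ctsb* in TPM went from 0.547 ± 0.0132 to 0.916 ± 0.0260. On the other strand *Gm47123* covers 26.9% of the exonic length of *Ctsl*, with at most 2 counts in a library. *Ctsd*, the main aspartic protease of the lysosome (chr7:142375911-142388038, minus strand), rose by 0.78 ± 0.04. It shares 34.4% of its exonic length with *Gm49369*, which had no counts in any library. *Ctsz*, a carboxypeptidase, rose by 0.45 ± 0.04, and *Ctsa*, the protective protein of the sialidase Neu1, by 0.27 ± 0.03. Exons of genes on the other strand cover 12.8% of *Ctsb* (*Fdft1*, log2 fold change 2.09) and 17.4% of *Ctsa* (*Neurl2*, 1.40, and *Pltp*, 3.71, together). These genes rose more than the cathepsins. With the spike-ins *Ctsb*, *Ctsa* and *Ctsz* turned to -0.24, -0.28 and -0.11, without a call.

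The cathepsins of specialised cell types were at or near 0. *Ctss*, known from antigen-presenting cells, was at 0 counts throughout D0 and had 1, 0 and 1 counts at D5, so it was not tested and no fold is given. *Ctsk*, the collagen-degrading protease of osteoclasts, had 0.641, 0.357 and 0.546 CPM at D0 and 0.319, 0.406 and 0.643 CPM at D5. Its groups overlapped (-0.16 ± 0.33, adjusted p = 0.658). Of 8 leukocyte markers, 4 were at or under 3 counts in every library, among them *Adgre1*, *Tyrobp* and *Fcgr1* at 0. Their summed level was from 4.78 to 5.09 CPM at D0 and from 4.86 to 6.11 CPM at D5, of which *Cd14* gave the most. The myeloid markers *Itgam* and *Lyz2* were at or near 0 at D0 (0, 0 and 0, and 1, 1 and 0 counts) and had 10, 13 and 5, and 4, 10 and 13 counts at D5. The 3 osteoclast markers summed to 0 at D0 and to at most 0.0406 CPM at D5, with *Dcstamp* and *Calcr* at 0 throughout. *Acp5*, the tartrate-resistant phosphatase of osteoclasts and macrophages, was under the filter, with 0 counts in every D0 library and 5, 6 and 4 counts at D5.

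The 5 other luminal proteins all rose, where 42.2% of all genes did so. *Neu1*, the lysosomal sialidase, had 23.5, 24.8 and 22.8 CPM at D0 and 52.9, 51.7 and 52.7 CPM at D5. Its 2.21-fold rise (log2 fold change 1.14 ± 0.05, edgeR adjusted p = 4.61e-20) was the largest of the 15 lysosomal genes tested. *Gaa*, the acid glucosidase that degrades glycogen in the lysosome and whose loss causes Pompe disease, rose by 0.94 ± 0.04. *Npc2*, the soluble partner of Npc1 in cholesterol export, rose by 0.93 ± 0.03, and *Hexa*, a subunit of beta-hexosaminidase, by 0.81 ± 0.04. *Tmem202*, which covers 12.8% of *Hexa* on the other strand, rose too, to at most 77 counts. *Lipa*, the acid lipase, rose by 0.31 ± 0.05, and was at -0.24 with the spike-ins, without a call. Thus *Npc2* was 1.91-fold higher at D5 while *Npc1* was at 0.997 times its D0 level.

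The comparison of the machinery with the lysosomal proteins gave similar counts and medians. In the machinery 18 of 25 genes rose (72%), 4 fell (16%) and 3 had no call, with a median log2 fold change of 0.37. Among lysosomal proteins 12 of 15 tested genes rose (80%), 1 fell (6.67%) and 2 had no call, with a median of 0.31. In the same test 42.2% of all genes rose and 40.8% fell. Within the machinery, median changes were 0.94 for the group of *Atg9a*, *Wipi1* and *Wipi2* and 0.69 for the Atg8 family. They were 0.37 for initiation, 0.24 for conjugation and 0.10 for cargo receptors. Among lysosomal proteins they were 0.93 for the other luminal proteins, 0.38 for the 6 cathepsins tested and 0.06 for the membrane proteins. These are descriptions, and no test was made between lists.

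Summed per length, the machinery went from 2019 ± 29.9 TPM (SD, n = 3) to 2643 ± 29.7 TPM and the lysosomal proteins from 2652 ± 68.2 TPM to 3336 ± 52.7 TPM. The Atg8 family rose from 792 ± 10.6 TPM to 1277 ± 5.69 TPM, and the cargo receptors, most of whose level was *Sqstm1*, from 828 ± 19.9 TPM to 873 ± 21.1 TPM. Cathepsins rose from 1252 ± 43.6 TPM to 1727 ± 53.7 TPM and the other luminal proteins from 361 ± 8.47 TPM to 589 ± 5.15 TPM. The membrane proteins, led by *Lamp1*, overlapped between stages at 1039 ± 17.3 TPM and 1020 ± 8.27 TPM.

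The ratio of lysosomal to machinery TPM was 1.31, 1.33 and 1.30 in the D0 libraries and 1.27, 1.28 and 1.24 in the D5 libraries. It was lower at D5 in TPM by a small step, whereas in CPM, which lacks the division by length, the ratio overlapped at 1.52 ± 0.0206 and 1.53 ± 0.0293. No p is given for this ratio, since with 3 libraries a stage the smallest two-sided p of an exact permutation test is 0.1.

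**Figure D3:**
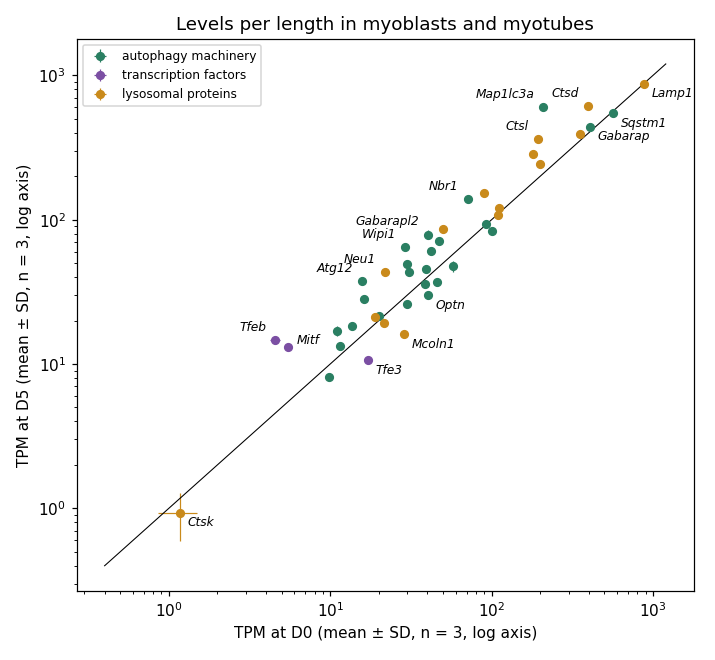
Mean TPM at D5 (y axis) against D0 (x axis) of the 43 tested genes, both on log axes, with SD (n = 3) as error bars and the line of equal level; colours mark autophagy machinery, transcription factors and lysosomal proteins. *Lamp1* has the highest level at both stages, 29 genes lie above the line and 14 below, and *Ctsk* lies far below the rest. Of all genes tested, 7054 were higher and 9229 lower in TPM.

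Among the leading genes by level, *Map1lc3a* and *Ctsd* moved up. Lower in the order, *Atg12* went from position 36 to 26 and *Wipi1* from 28 to 19, while *Mcoln1* went from 29 to 37 and *Optn* from 21 to 29. At D0 the leading genes were *Lamp1*, *Sqstm1* (569 ± 18.4 TPM), *Gabarap* (409 ± 5.60), *Ctsd* (396 ± 15.2) and *Ctsb* (353 ± 14.2), of which *Gabarap* and *Ctsd* were within their spread. *Map1lc3a* was in position 6, close to *Ctsz* (198 ± 5.83 TPM) and *Ctsl* (193 ± 8.63 TPM). At D5 *Lamp1* was followed by *Ctsd* (610 ± 25.3 TPM) and *Map1lc3a* (603 ± 26.3 TPM), which did not differ beyond their spread, and then by *Sqstm1* and *Gabarap*.

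Promoters were searched for the E-box CACGTG and for its extension TCACGTGA, the core of the CLEAR element that MiT/TFE factors bind. RefSeq windows of GRCm38.p6, from 250 bases before to 50 bases after a start, were found for 36 of the 44 genes. Both motifs read the same on either strand, and each longer match contains a shorter one. The E-box was in 11 of the 36 genes (30.6%) and in 11.6% of the tested genes with a window, or in 25.6% of these genes' 43 windows against 7.15% of all 32851 windows. It occurred in 6 of 14 lysosomal genes, 5 of 19 machinery genes and 0 of 3 transcription factor genes. TCACGTGA was in 4 genes (*Atg3*, *Ctsa*, *Ctsd* and *Mcoln1*), or 9.30% of the windows, against 1.79% of the windows of all tested genes and 0.974% of all windows. A match is a description of the sequence, and binding was not measured.

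The stretches shown include those of *Atg3*, the only machinery gene with TCACGTGA, and of *Ctsd*, which had the largest change of the lysosomal genes with it. The others are of *Mcoln1*, which holds the same motif but fell, and of *Lamp1*, which holds the most E-box matches. The last pair was chosen after the matches were seen. Capitals mark matches, and each sequence is written 5′ to 3′ on the strand of the gene.
*Atg3*, chr16:45158746-45158775, plus strand: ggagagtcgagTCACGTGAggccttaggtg
*Ctsd*, chr7:142387908-142387937, minus strand: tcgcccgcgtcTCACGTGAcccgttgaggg
*Mcoln1*, chr8:3500462-3500491, plus strand: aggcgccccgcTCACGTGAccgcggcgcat
*Lamp1*, chr8:13159089-13159160, plus strand: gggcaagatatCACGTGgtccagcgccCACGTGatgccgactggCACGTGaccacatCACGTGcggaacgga
The stretches of *Ctsd* and *Mcoln1* lie before the RefSeq start but inside the span of the gene in GENCODE M21, which begins further upstream. The genes with the same TCACGTGA did not move together: *Ctsd* and *Ctsa* rose by 0.78 and 0.27, while *Atg3* and *Mcoln1* were at -0.11 and -0.68. Of the 11 genes with the E-box, 7 rose and 3 fell, with a median log2 fold change of 0.27. Of the 25 genes with a window and no match, 19 rose, 2 fell and 1 was not tested, with a median of 0.67. Of all genes tested, 42.2% rose and 40.8% fell, with a median of 0.0022. The difference between genes with and without a match was not tested.

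The other genes of the pathway, 153 genes of 5 lists, moved mostly upward too. Of the 146 tested, 94 rose, 38 fell and 14 had no call, with a median log2 fold change of 0.36 against 0.0022 over all genes. These are 64.4% higher and 26.0% lower, beside 42.2% and 40.8% of all genes. No gene of these lists fell by more than 2-fold, and 27 rose by more than 2-fold. Of all 16290 genes tested, 2612 fell and 3141 rose by more than 2-fold.

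Among 36 other autophagy genes 26 rose and 3 fell (72.2% and 8.33%, beside 42.2% and 40.8% of all genes, with a median of 0.44). *Depp1*, a FOXO target that modulates autophagy, rose from between 0.262 and 0.298 CPM to between 5.40 and 5.95 CPM (log2 fold change 4.33 ± 0.19). *Rb1cc1*, which encodes the scaffold FIP200 of the ULK complex, fell by 0.82 on the log2 scale with an SE of 0.03. *Atg4c*, a protease that processes Atg8 proteins, fell by 0.52 with an SE of 0.06. In the ULK complex *Atg13* and *Rb1cc1* thus changed in opposite directions.

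The v-ATPase is the proton pump that acidifies the lysosome. Of its 21 tested genes 16 rose and 4 fell (76.2% and 19.0%, beside 42.2% and 40.8% of all genes, with a median of 0.43). *Atp6v0d2* had 0, 1 and 1 counts at D0 and 92, 107 and 103 at D5, and so was at least 53.8-fold higher against a floor of 3 counts per library. *Atp6v1c2* had 1, 0 and 1 counts at D0 and 89, 115 and 96 at D5, at least 53.4-fold higher. The largest falls were of *Atp6v0e* (-0.65 ± 0.04) and *Atp6v0d1* (-0.28 ± 0.04), which are paralogs of *Atp6v0e2* (2.59 ± 0.10) and *Atp6v0d2*. *Atp6v0d1* stayed above *Atp6v0d2* per length, with 120 against 4.62 TPM at D5.

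Of 39 other hydrolases and cofactors tested, 26 rose and 11 fell (66.7% and 28.2%, beside 42.2% and 40.8% of all genes, with a median of 0.41). *Ctsc*, which activates proteases of leukocyte granules, had 1, 1 and 0 counts at D0 and 78, 83 and 54 counts at D5, at least 38.3-fold higher. *Siae*, a sialic acid esterase, rose by 3.42 ± 0.28 at a low level, from 3, 12 and 15 counts at D0 to 54, 80 and 68 at D5. *Ctsc* and *Atp6v0d2* are both known from myeloid cells, whose markers did not go one way: *Itgam* and *Lyz2* had more counts at D5, *Csf1r* had 3, 3 and 5 counts at D0 and 2, 1 and 0 at D5, *Cd14* had no call (-0.02), and *Adgre1*, *Tyrobp* and *Fcgr1* were at 0. The part of such cells in these rises was not tested. *Gusb*, the beta-glucuronidase, fell by 0.95 on the log2 scale with an SE of 0.04 and *Scpep1*, a serine carboxypeptidase, by 0.50 with an SE of 0.03.

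The 24 other membrane proteins tested were more evenly divided, with 11 higher and 9 lower (45.8% and 37.5%, near the shares of all genes; median 0.04). *Cln3*, mutated in juvenile Batten disease, rose by 3.11 ± 0.22 at a low level, from 10, 18 and 15 counts at D0 to 85, 77 and 71 at D5. *Laptm4a* rose by 1.16 ± 0.03, whereas *Hgsnat*, an enzyme of heparan sulfate breakdown, was at -0.91 ± 0.05 and *Litaf* at -0.69 ± 0.04. Of 26 sorting and mTORC1 genes tested 15 rose and 11 fell (57.7% and 42.3%, the share of falls near the 40.8% of all genes; median 0.16). *Lamtor4*, a subunit of the Ragulator that tethers mTORC1 signalling to the lysosome, rose by 1.99 ± 0.07, and the sorting receptor gene *Sort1* by 1.88 ± 0.05. *Gnptab*, whose enzyme makes the mannose 6-phosphate tag of hydrolases, was at -0.80 ± 0.04, and the adaptor gene *Gga2* at -0.79 ± 0.04.

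**Figure D4:**
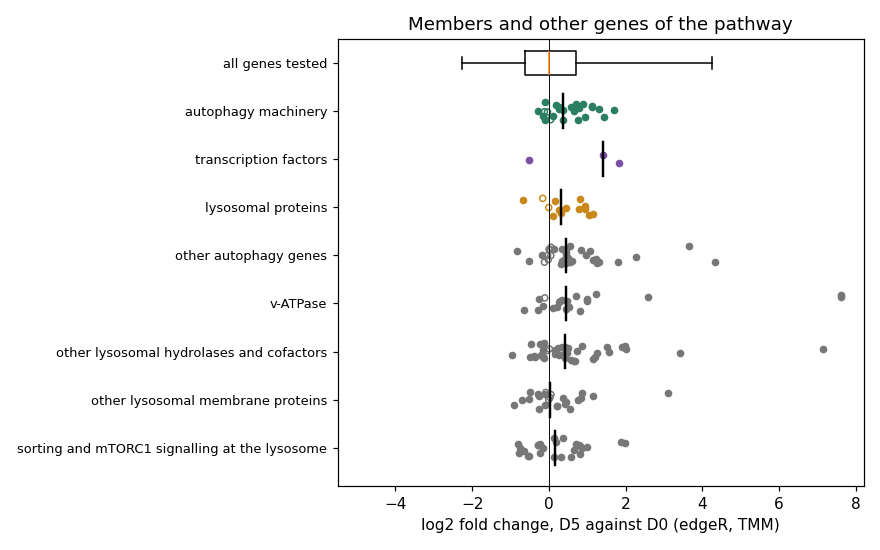
Log2 fold change of D5 against D0 (x axis, edgeR with TMM factors) for the genes of each list, with the median as a black bar; filled points passed an adjusted p of 0.05 and open points did not. The box gives the quartiles and the 5th to 95th percentiles of all 16290 genes tested; the 3 points above 7 are *Atp6v0d2*, *Atp6v1c2* and *Ctsc*, whose fitted values rest on at most 1 count in a D0 library and are no bound. With the spike-ins the medians of the machinery and of the lysosomal proteins turn to -0.19 and -0.24.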

How the data were processed

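RNA-seq libraries of 3 D0 and 3 D5 samples of C2C12 WT cells were analysed. The authors mapped the reads to GRCm38 (mm10) and deposited featureCounts' raw counts per gene, one table per sample. The labels name Tophat2 and NGS-QC-Toolkit, whereas the paper's methods name HISAT2 and FastQC. The strand setting, annotation release and handling of reads with several matches are not given in the sources used here, so overlapping genes, antisense genes and pseudogenes may share reads. A row without a gene name equalled the total of its column (50% of its sum), and neither it nor the ERCC rows (0.720% to 2.09% of counts) entered library sizes or tests.

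From the deposited counts, CPM, TPM (exonic length of GENCODE M21, GRCm38), log2 fold changes and adjusted p-values were derived (edgeR 4.0.16, R 4.3.3). The fit used TMM factors, filterByExpr, the quasi-likelihood test and Benjamini-Hochberg adjustment over 16290 genes at a threshold of 0.05. The SE is |log2 fold change| over the root of the F statistic. A gene with 3 counts or fewer in every library of a group was treated as not detected there, a limit that covers counting error only. The labels give 3 cultured samples a stage without saying how separately they were grown, so p-values measure the spread between these samples, which may be technical. Replicate pairs differed by more than sampling noise (chi-square of 2.25 to 3.58 per degree of freedom). Alternatives were DESeq2 1.42.0, upper-quartile factors, total counts, ERCC scaling, no filter, a minimum of 10 counts in all libraries, omission of each library in turn, and the replicate number as a block.

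The 44 genes and the lists were chosen with earlier results of these data known. Values per library are given for the called gene with the largest rise and the largest fall of each functional group, all Atg8 family genes, the 3 transcription factors and the member under the filter (*Ctss*), and for a few others chosen after their values were seen (*Sqstm1*, *Lamp1*, *Ctsk*, *Acp5*, *Cln3*, *Siae*). Genes without a call have their fold change, and of each pathway list the 2 largest called rises and falls are named, with *Atp6v0e2* added after its values were seen and 1 gene that is not reported here. Protein sequences were not analysed here.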

Additional observations from a re-analysis of the deposited data

How the results depend on the processing

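The 38 calls of the 43 tested genes all held with upper-quartile factors, with at least 10 counts in every library and with the replicate number as a block (32 higher, 6 lower; 13558 of all genes called against 13510). Same-numbered libraries deviated together only weakly (correlations of 0.03, 0.06 and 0.03, each the highest for its number), so the numbers were not taken as pairs. Leaving out each library gave 31 to 32 genes higher and 5 to 6 lower, 17 to 18 and 3 to 4 for the machinery, 12 and 1 for lysosomal proteins throughout, medians of 0.35 to 0.41 and 0.26 to 0.34, 92 to 94 and 35 to 38 other pathway genes, and 13236 to 13599 of all genes. Without single libraries *Npc1* ranged from -0.037 to 0.0067 (0.0024 without D5 replicate 1, and 0.0024 with DESeq2) and *Ctsk* from -0.49 to 0.04 (0.0032 without D0 replicate 1, 0.044 without D5 replicate 1).

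ERCC scaling, where the spike-in share differed among D5 libraries, left 1 gene higher (*Tfeb*) and 0 lower, 0 and 0 for the machinery, 0 and 0 for lysosomal proteins, 14 and 7 other pathway genes, and 5560 of all genes, of which 1813 were higher. The medians reversed to -0.19 and -0.24 while that of all genes was -0.58. *Ulk2* (-0.51), *Becn1* (-0.19), *Pik3c3* (-0.33), *Atg14* (-0.22), *Gabarap* (-0.30), *Gabarapl1* (-0.41), *Sqstm1* (-0.47), *Lamp1* (-0.41), *Lamp2* (-0.44), *Ctsa* (-0.28), *Ctsb* (-0.24), *Ctsz* (-0.11) and *Lipa* (-0.24) reversed, and the cause was not tested. None of these had a call with the spike-ins, where the SE was 0.52 for *Ulk2*, *Becn1*, *Pik3c3* and *Atg14*. Total counts gave 2 lysosomal genes lower, medians of 0.29 and 0.23, and *Ulk2* at -0.041. Without a filter the medians were 0.32 and 0.26 and *Ulk2* was at -0.0093, and with at least 10 counts the lysosomal median was 0.38. The ratio of lysosomal to machinery level was 1.52 and 1.53 at D0 and D5 in CPM, 1.22 and 1.17 without *Sqstm1* and *Lamp1*, and 1.24 and 1.15 without genes sharing over 10% of their stretches, an alternative chosen after seeing the data. The share of windows with the shorter motif CACGTG was 25.6%.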
